A study of Mus musculus with 15 samples.

Results

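The comparison is the strain by oxygen interaction in mouse liver: for each gene, the change between oxygen and room air in BALBc minus the same change in C57. All 15 libraries of the series enter it, and 13026 of the 54532 genes in the table were tested, those with an FPKM (fragments per kilobase of gene, scaled to the library's total) of at least 1 in at least 3 libraries. A response is hyperoxia minus normoxia on log2(FPKM + 1), and the interaction is the BALBc response minus the C57 response; both are given on that log2 scale with ± for the standard error. It was called for 107 genes, 0.821% of those tested, at an adjusted p under 0.05 (limma, Benjamini-Hochberg over the genes tested). A higher response in BALBc was called for 49 genes (0.376%) and a lower one for 58 (0.445%). An unadjusted p under 0.05 for the interaction (limma) was found for 1650 genes, 12.7% of those tested.

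The series studies oxygen-induced retinopathy, in which high oxygen prunes the retinal vessels of mouse pups, and the strains are named in the labels as C57 and BALBc, with no substrain. Pups were kept in room air, and the hyperoxia pups were moved to 75% oxygen at postnatal day 7, while liver RNA of every group was taken at postnatal day 12. The groups were C57 normoxia (room air, n = 4), C57 hyperoxia (75% oxygen, n = 4), and the same pair in BALBc, normoxia (n = 3) and hyperoxia (n = 4). The labels give no mutant allele and no drug, and do not tie a replicate to an animal of its own, so that the p-values describe variation among these libraries, which may be technical. In bulk liver, fewer cells of a type and less RNA per cell cannot be told apart.

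The liver receives blood both from the gut and from the hepatic artery, and oxygen falls along each lobule from the portal to the central vein, with urea synthesis concentrated at the first and much of drug metabolism at the second. Before weaning the liver still turns from a fetal programme, with alpha-fetoprotein and blood cell formation, to the adult one, with detoxifying enzymes and secreted protease inhibitors. Fatty acids reach it from milk in this period, and the nuclear receptor PPARA switches on their oxidation.

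The libraries held 1.49e+07 to 1.91e+07 fragments each, from the steps between low values. All 20 hepatocyte marker genes were tested, and their summed FPKM ran from 95630.3 to 122912 per library. By Xist and Ddx3y, a Y chromosome gene, each group held both sexes, in shares that differed. Xist was at FPKM 49.6 to 54.0 in C57 normoxia replicates 2 and 3 and C57 hyperoxia replicate 1. It was at 55.9 to 66.2 in BALBc normoxia replicates 1 and 3 and BALBc hyperoxia replicates 2 and 4. In the other libraries it was at 0 to 0.0996, and Ddx3y was at 12.0 to 18.8. BALBc normoxia 1 and BALBc hyperoxia 4 also had Ddx3y at 0.764 and 0.958. The libraries fell into 2 classes by the share of weakly expressed genes at exactly 1 fragment: 8 libraries had few such genes, and 7 had many, among them all 4 of C57 hyperoxia and 1 each of C57 normoxia (replicate 4), BALBc normoxia (replicate 1) and BALBc hyperoxia (replicate 1). The labels do not say what sets these classes apart. No C57 hyperoxia library was in the class with few, so the interaction could not be fitted there. Within the 7 libraries with many such genes, limma called 0 genes with 812 at an unadjusted p under 0.05; 3 of the 4 groups hold 1 library each there, so the spread comes from C57 hyperoxia alone and this fit says nothing about stability. With the class as a term of the model over all 15 libraries 28 genes were called, 20 of them among the 107 (12 opposite, 6 near 0 and 2 mostly in one strain, in the terms explained next).

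The responses of the 107 genes were sorted by their form. In 44 the responses had opposite signs, each by at least 0.25 on the log2 scale, from a room-air mean FPKM of at least 2 in both strains. In 31 the room-air mean was under 2 in at least 1 strain, so that little room was left for a fall there. That starting level was common, since 33.6% of all genes tested had it. In the other 32 the smaller of the 2 responses was under 0.25, and for none of the 107 did both responses have the same sign and a size of at least 0.25 from a level above the boundary. Of the 107, 34 were also called for the response in C57 alone (0.937% of all genes tested were), 47 for that in BALBc alone (0.944%), 5 of them in both, and 31 in neither.

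**Figure D1:**
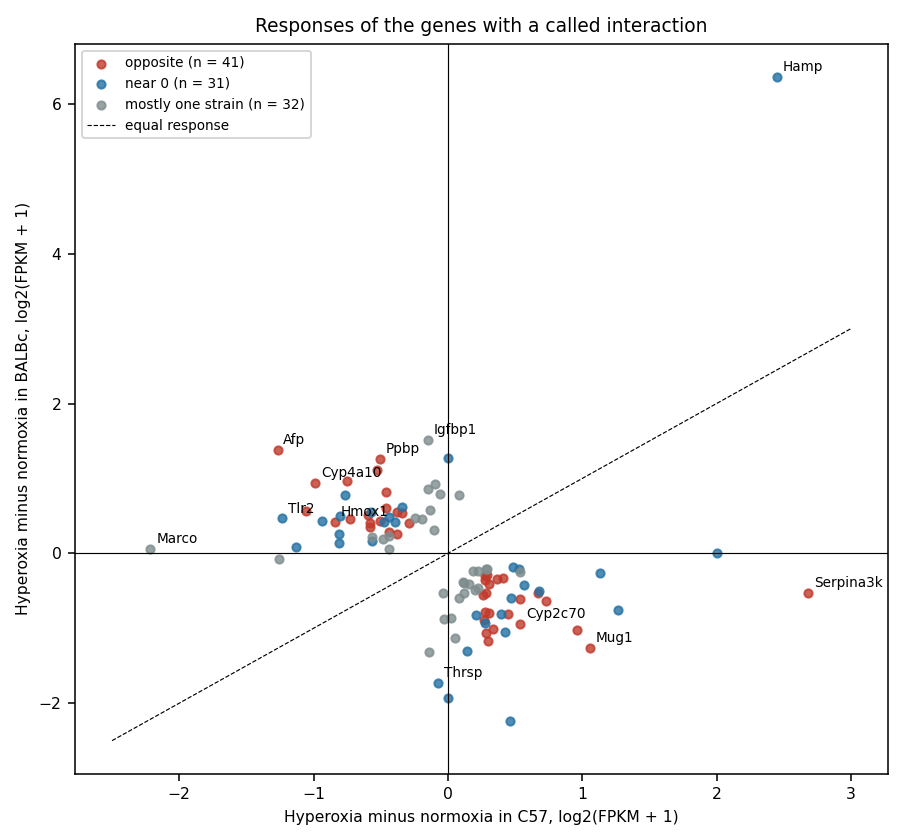
Response of 104 of the 107 called genes in C57 (x axis) and in BALBc (y axis), both as hyperoxia minus normoxia on log2(FPKM + 1). Colour gives the form of the response, and the dashed line marks an equal response. The 41 opposite genes shown fill the upper left and lower right of the plot, and Hamp stands at the upper right, with 2.45 in C57 and 6.36 in BALBc.

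The count of 107 moved with single libraries. It was 162 without C57 normoxia replicate 4, and it was 45 and 53 without C57 hyperoxia replicates 2 and 4, 47 and 44 without BALBc normoxia replicates 2 and 3, and 40, 50 and 48 without BALBc hyperoxia replicates 2, 3 and 4. Of the 107 genes, 29 were called in each of the 15 refits that left out 1 library: 15 opposite, 9 near 0 and 5 mostly in one strain. Another 51 were called in under 8 of the 15. Among genes described further on, Spic was called in 2 refits, Txnip, Ahcy and Gm4788 in 3, and Osgin1, Peg3 and Dhx58 in 4. Lgals3 was called in 5 refits and Hsp90aa1 in 6.

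Among the 44 opposite genes, 25 had a response above 0 in C57 and below 0 in BALBc, and 19 had the reverse. An unadjusted p under 0.05 in both strains with opposite signs was found for 38 of the 44, and for 1.16% of all genes tested. The response was called in C57 for 14 of the 44, in BALBc for 17 and in neither for 17, and in both strains for 4, among them Mug1, Cyp2c70 and Acot2. Oxygen and room-air libraries did not overlap in either strain, in opposite directions, for 21 of them, against 0.491% of all genes tested. These genes were called on the difference of the same responses, so these shares describe them and test nothing further.

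Among the genes with the lower response in BALBc, Cyp2c70, the mouse P450 that makes muricholic bile acids, was at FPKM 177, 150.0, 219 and 190.1 in C57 room air and 258, 272, 241 and 293 in oxygen. The values in BALBc were 287, 257 and 264 in room air and 145, 133, 121 and 162 in oxygen. Neither strain's groups overlapped, and the order of the strains turned over between room air and oxygen. It rose by 0.54 ± 0.11 in C57 (adjusted p = 0.0376) and changed by -0.94 ± 0.12 in BALBc (adjusted p = 0.00248, limma), for an interaction of -1.48 ± 0.16 (adjusted p = 0.00105).

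Cyp4f14, a fatty acid and leukotriene hydroxylase, was at FPKM 7.75, 5.89, 13.5 and 6.18 in C57 room air and 12.5, 17.5, 13.4 and 24.2 in oxygen, and at 33.4, 40.5 and 42.2 and 16.3, 14.2, 21.5 and 22.9 in BALBc. The groups overlapped in C57, where 1 room-air library reached the oxygen range, and did not overlap in BALBc. Neither response passed the test alone (adjusted p = 0.0787 and 0.0807), while the interaction of -1.99 ± 0.35 did (adjusted p = 0.0202). It missed the threshold without BALBc normoxia replicate 2 (adjusted p = 0.057) and without replicate 3 (adjusted p = 0.0599).

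Sult2a1, which sulfonates bile acids and steroids, was at FPKM 257, 258, 387 and 336 in C57 room air and at 358, 520.1, 289.8 and 364 in oxygen. In BALBc, 694, 562 and 633 in room air stood against 265, 302, 257 and 289.7 in oxygen. The C57 groups overlapped and the BALBc groups did not: the response was 0.30 ± 0.16 in C57 (adjusted p = 0.428) and -1.17 ± 0.17 in BALBc (adjusted p = 0.00508), and the interaction was -1.47 ± 0.24 (adjusted p = 0.0144). Ces3a, a liver carboxylesterase, rose by 0.73 ± 0.15 in C57 (adjusted p = 0.0371) against -0.63 ± 0.16 in BALBc (adjusted p = 0.0894). Abcb11, the bile salt export pump, had an interaction of -0.58 ± 0.11 (limma adjusted p = 0.0282), called in 7 of 15 refits. Slc22a7, an organic anion carrier, had -1.15 ± 0.25 (limma adjusted p = 0.0462), called in 2 of 15 refits, and its C57 groups overlapped. For both carriers neither strain's response passed the test alone.

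Of the 30 tested cytochromes P450 of families 2 and 3, 4 were called, all with the lower response in BALBc: Cyp2c70, Cyp2f2, Cyp2j5 and Cyp2c39. Cyp2f2 had a mean of 29.3 ± 7.45 in C57 room air, 36.8 ± 6.63 in C57 oxygen (SD, n = 4 each), 49.6 ± 7.98 in BALBc room air (SD, n = 3) and 24.1 ± 2.77 in BALBc oxygen (SD, n = 4). The interaction lay below 0 for 22 of the 30 and above 0 for 8, with a median of -0.27 on the log2 scale, against a median of -0.01 over all genes tested. The median response of the family was 0.13 in C57 and -0.21 in BALBc.

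Mug1, a murinoglobulin, is a plasma protein of the alpha-2-macroglobulin family that traps proteases (ENSMUSG00000059908, chr6:121838541-121889057, plus strand). It was at FPKM 18.2, 16.5, 17.3 and 22.8 in C57 room air and 37.9, 46.2, 33.3 and 42.7 in oxygen. BALBc libraries had 123, 105 and 167 in room air and 48.3, 46, 61.5 and 59.9 in oxygen. Without overlap in either strain, Mug1 rose by 1.06 ± 0.15 in C57 (adjusted p = 0.00522) and changed by -1.26 ± 0.16 in BALBc (adjusted p = 0.00248), and the strains' ranges met in oxygen after a wide gap in room air. The interaction was -2.32 ± 0.22 (limma adjusted p = 2.50e-04), was called in 15 of 15 refits and was -2.29 with the library class in the model (adjusted p = 0.00382).

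The 250 bases before the RefSeq start of Mug1 are shown because it and its paralogue Mug2 had responses of the same sign in each strain (GRCm38.p6, chr6:121838291-121838540, plus strand). Capitals here and below mark a match to either of the motifs searched, and Mug1 has none.
Mug1: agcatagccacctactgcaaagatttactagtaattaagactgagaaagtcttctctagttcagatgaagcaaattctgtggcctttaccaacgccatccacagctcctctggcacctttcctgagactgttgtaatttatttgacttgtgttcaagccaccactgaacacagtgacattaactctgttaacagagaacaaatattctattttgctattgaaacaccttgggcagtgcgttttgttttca

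Serpina3k, a serpin that binds kallikreins, was at FPKM 5.17, 9.32, 24.9 and 4.997 in C57 room air and 40.1, 102, 83.1 and 46.4 in oxygen. The BALBc values were far above these, 1962, 1698 and 1971 in room air and 1124, 1349, 1213 and 1535 in oxygen. The groups did not overlap in either strain, but the BALBc response of -0.53 ± 0.42 did not pass the test (adjusted p = 0.681, unadjusted p = 0.224); in C57 it rose by 2.68 ± 0.39 (adjusted p = 0.00522). The interaction of -3.21 ± 0.57 (adjusted p = 0.0202) missed the threshold without BALBc normoxia replicate 3 (adjusted p = 0.0587). Among the 23 tested murinoglobulins and other inhibitors 3 were called with the lower response in BALBc, Mug1, Mug2 and Serpina3k, and 1, Serpina1d, with the higher; the median interaction of the list was -0.07.

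Cps1, which makes carbamoyl phosphate for the urea cycle, was at FPKM 474, 308, 442 and 459 in C57 room air and 467, 500.0, 421 and 636 in oxygen. The BALBc libraries were at 475, 550.4 and 694 in room air and at 289, 278, 314 and 345 in oxygen. Room-air and oxygen libraries overlapped in C57 but not in BALBc, where Cps1 fell by 0.89 ± 0.17 (adjusted p = 0.0203); the C57 response was 0.27 ± 0.15 (adjusted p = 0.458) and the interaction -1.16 ± 0.23 (adjusted p = 0.031), called in 8 of 15 refits. The losses came without C57 hyperoxia replicates 2 and 4, BALBc normoxia replicates 2 and 3 and BALBc hyperoxia replicates 1, 2 and 3, with an adjusted p of 0.0533 to 0.0948.

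Cps1 was the single call among 17 tested genes of the urea cycle and ammonia handling, yet 16 of the 17 had an interaction below 0, with a median of -0.46. The median response was 0.04 in C57 and -0.44 in BALBc. Next by p came Arg1, arginase, at -0.70 ± 0.16 (adjusted p = 0.0563), Gpt, alanine aminotransferase, at -1.58 ± 0.38 (adjusted p = 0.0716) and Otc, ornithine transcarbamylase, at -0.53 ± 0.14 (adjusted p = 0.0931), none of which passed the threshold. Of 27 genes of amino acid breakdown, 2 were called, both with the lower response in BALBc: Tdo2, which opens the tryptophan ring, and Prodh, proline dehydrogenase. Tdo2 was at FPKM 60.9 to 79.9 in C57 room air, 68.5 to 97.7 in C57 oxygen, 189 to 210.1 in BALBc room air and 98.1 to 126 in BALBc oxygen. Its interaction was -1.06 ± 0.17 (adjusted p = 0.0144), called in 15 of 15 refits, and -0.94 with the library class in the model (limma adjusted p = 0.0545).

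Other opposite genes with the lower response in BALBc were Nrn1, Nat8f1, Nat8f2, Lect2, Nudt7, C8a, Hpgd, Acnat2, Cmah and Slc29a1. Nat8f1 and Nat8f2, neighbouring acetyltransferase genes, had interactions of -1.35 ± 0.24 and -1.25 ± 0.24. Lect2, a hormone secreted by hepatocytes, and C8a, a chain of complement component 8, had interactions of -0.81 ± 0.16 and -0.63 ± 0.13.

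Among the genes with the higher response in BALBc, Cyp4a10, a microsomal fatty acid omega-hydroxylase and a classic PPARA target, was at FPKM 89.6, 120.5, 72 and 74.6 in C57 room air and 55.3, 35.6, 66.4 and 27.3 in oxygen. In BALBc it was at 75.8, 79.1 and 58.9 in room air and 124, 143, 132 and 148 in oxygen. All oxygen libraries lay below the room-air libraries in C57 and above them in BALBc. Neither response passed the test alone (-0.99 ± 0.23, adjusted p = 0.0614, and 0.94 ± 0.25, adjusted p = 0.0965), while the interaction was 1.93 ± 0.34 (adjusted p = 0.0195) and missed the threshold without BALBc normoxia replicate 3 (adjusted p = 0.0599).

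Cyp4a14, its neighbour and paralogue, was at FPKM 239, 288, 207 and 236 in C57 room air and 174, 134, 201 and 136 in oxygen, and at 222, 216 and 199 and 285, 319, 263 and 347 in BALBc. As with Cyp4a10, the groups did not overlap in either strain; Cyp4a14 fell in C57 by 0.59 ± 0.13 (adjusted p = 0.0495), and its BALBc response was 0.51 ± 0.14 (adjusted p = 0.121). The interaction of 1.1 ± 0.19 (adjusted p = 0.0202) missed the threshold without BALBc normoxia replicate 3 and without BALBc hyperoxia replicate 2 (adjusted p = 0.0615 and 0.0509).

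Acot2, a mitochondrial thioesterase that frees fatty acids from coenzyme A, was at FPKM 5.26, 4.93, 4.8 and 5.1 in C57 room air and 3.43, 3.01, 3.24 and 3.81 in oxygen. BALBc libraries held 12.6, 12.7 and 9.22 in room air and 18.9, 18, 18.5 and 16.1 in oxygen. Both responses passed the test, a change of -0.46 ± 0.09 in C57 (adjusted p = 0.0367) and a rise of 0.61 ± 0.10 in BALBc (adjusted p = 0.0118), and the groups overlapped in neither strain. The interaction was 1.07 ± 0.14 (adjusted p = 0.00469), called in 15 of 15 refits, and 1.16 with the library class in the model (adjusted p = 0.0123). Acot3, its peroxisomal relative on the same chromosome stretch, was at FPKM 8.53 to 13.8 in C57 room air, 5.19 to 7.61 in C57 oxygen, 7.11 to 19.9 in BALBc room air and 17.8 to 31.4 in BALBc oxygen. Its BALBc groups overlapped because 1 room-air library, replicate 1, was as high as the oxygen libraries, and its interaction of 1.72 ± 0.37 (adjusted p = 0.0427) was called in 3 of 15 refits, those without C57 normoxia replicate 4, C57 hyperoxia replicate 3 or BALBc normoxia replicate 1.

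Of 19 tested genes of fatty acid oxidation in peroxisomes and microsomes 3 were called, Cyp4a10, Cyp4a14 and Acot3, all with the higher response in BALBc; 15 of the 19 had an interaction above 0, with a median of 0.38. The median response was -0.16 in C57 and 0.20 in BALBc. Of 21 further PPARA targets and ketogenic genes 1 was called, Acot2, and 19 had an interaction above 0, with a median of 0.24. Pdk4, the kinase that blocks pyruvate entry into the citric acid cycle, came next at 1.21 ± 0.27 (adjusted p = 0.0541), with means of 7.13 ± 2.29 and 5.75 ± 0.84 in C57 room air and oxygen and 6.46 ± 0.389 and 13.9 ± 3.22 in BALBc (SD). Cpt1a, which admits long-chain fatty acids to mitochondria, had an interaction of 0.39 ± 0.12 (adjusted p = 0.164).

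Afp, alpha-fetoprotein, the major plasma protein of the fetus (ENSMUSG00000054932, chr5:90490737-90508907, plus strand), was at FPKM 645, 734, 559.6 and 566 in C57 room air and at 303, 121, 503 and 239.6 in oxygen. BALBc libraries held 22.4, 14.8 and 11.6 in room air and 58, 40.1, 37.5 and 37.5 in oxygen. The oxygen libraries lay below the room-air libraries in C57 and above them in BALBc, and every BALBc library lay below every C57 library. Neither response passed alone (-1.27 ± 0.32, adjusted p = 0.0867, and 1.38 ± 0.35, adjusted p = 0.0812), and the interaction was 2.65 ± 0.47 (limma adjusted p = 0.021). It missed the threshold without BALBc normoxia replicate 2 or 3 (adjusted p = 0.0612 and 0.0642).

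Igfbp2, a plasma protein that binds insulin-like growth factors, was at FPKM 3375, 4284, 2989 and 3476 in C57 room air and 2427, 2043, 3449 and 2025 in oxygen. In BALBc the values were 321, 407 and 336 in room air and 654, 949, 854 and 649 in oxygen. Groups overlapped in C57 through 1 oxygen library, replicate 3, and not in BALBc, where Igfbp2 rose by 1.12 ± 0.19 (adjusted p = 0.011); the C57 response was -0.53 ± 0.17 (adjusted p = 0.171). The interaction was 1.65 ± 0.25 (adjusted p = 0.0144) and was called in 15 of 15 refits. Fabp5, a fatty acid binding protein, had the same form, with means of 231 ± 22.9 and 169.6 ± 33.7 in C57 and 37.6 ± 9.05 and 66.2 ± 7.96 in BALBc (SD) and an interaction of 1.28 ± 0.22 (adjusted p = 0.0187).

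Promoters of Afp and of Igfbp1, the binding protein described further on, are shown with a match to the letters given next. Both genes were higher in every BALBc oxygen library than in BALBc room air, at levels below C57. So were other called genes whose promoters are not shown, among them Igfbp2, Serpina1d, Fabp5, Peg3, Pctp, Hmox1, Galk1, Ccl6 and Soat1. Promoters active in liver can carry a site of HNF1, a hepatocyte transcription factor. The letters GTTAATNAT, one form of that site, were searched on both strands in the 250 bases before each RefSeq start (GRCm38.p6) and are in capitals. They were found in 0.7808% of 27025 promoters and in 0.6644% of those of the genes tested. Among called genes with the higher response in BALBc, 1 of 13 promoters of opposite genes held them, that of Afp. The same was true of 0 of 11 promoters of genes near 0 and of 1 of 13 mostly in one strain, that of Igfbp1. Afp (chr5:90490464-90490713, plus strand) has them from base -105, counted back from the start, and Igfbp1 (chr11:7197537-7197786, plus strand) has them on the other strand from base -59; these are matches of letters, and binding was not measured.
Afp: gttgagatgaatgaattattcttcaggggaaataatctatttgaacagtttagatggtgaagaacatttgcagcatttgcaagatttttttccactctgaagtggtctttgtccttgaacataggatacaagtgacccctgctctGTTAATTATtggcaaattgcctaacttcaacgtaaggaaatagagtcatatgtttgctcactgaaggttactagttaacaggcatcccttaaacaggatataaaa
Igfbp1: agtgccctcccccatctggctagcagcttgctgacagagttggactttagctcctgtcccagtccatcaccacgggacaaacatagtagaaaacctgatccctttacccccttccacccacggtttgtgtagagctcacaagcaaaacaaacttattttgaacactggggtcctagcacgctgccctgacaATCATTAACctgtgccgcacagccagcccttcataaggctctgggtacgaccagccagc
Of the 107 called genes 75 had a promoter in the table, and besides these it was Gm4788, with the lower response in BALBc, that held the letters.

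**Figure D2:**
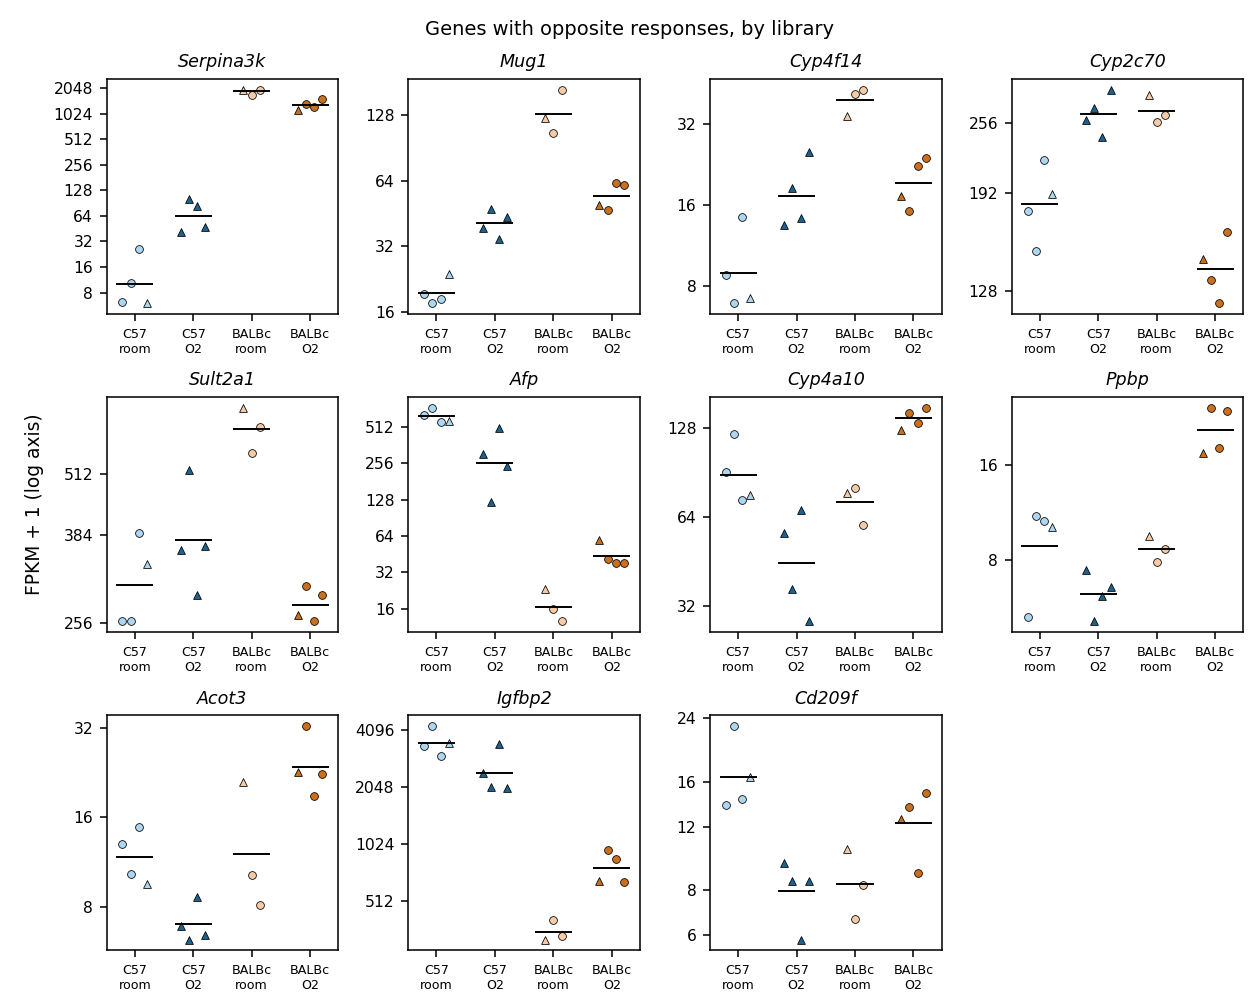
FPKM + 1 on a log axis, by library, for 11 genes with a large interaction among the opposite ones, 5 with the lower and 6 with the higher response in BALBc, in room air and in oxygen for each strain. Circles are libraries with few genes at exactly 1 fragment, triangles those with many, and bars are means on the log scale. In Cyp2c70 the order of the strains in room air is turned over in oxygen, while in Afp and Igfbp2 the strains stay apart and come closer.

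Hmox1, heme oxygenase, which opens the heme ring, was at FPKM 66.3, 60.1, 48.6 and 63.8 in C57 room air and 36.7, 32.8, 31.4 and 30.1 in oxygen. BALBc libraries were at 16.8, 20.0 and 16.6 in room air and 23.1, 22.3, 23.1 and 27.9 in oxygen. The groups overlapped in neither strain: Hmox1 fell in C57 by 0.84 ± 0.11 (adjusted p = 0.00225), and the BALBc response was 0.42 ± 0.11 (adjusted p = 0.109). The interaction of 1.26 ± 0.15 (adjusted p = 0.00291) was called in 15 of 15 refits and was 1.25 with the library class in the model (adjusted p = 0.019). Blvrb, biliverdin reductase B, rose in BALBc by 0.47 ± 0.10 (adjusted p = 0.0432) with a C57 response of -0.24 ± 0.09 (adjusted p = 0.246), just under the 0.25 asked of an opposite response.

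Hmox1 was the 1 call among 22 tested NRF2 targets and antioxidant enzymes, whose median interaction was -0.03; the next by p, Gpx4, had 0.43 ± 0.12 (adjusted p = 0.124). It was also 1 of 3 calls among 21 tested targets of hypoxia-inducible factors, with Ak4, a mitochondrial adenylate kinase, and Igfbp1, all 3 with the higher response in BALBc. That list had a median interaction of 0.16, with 16 of the 21 above 0. Ak4 was at FPKM 21.7, 21.2, 21 and 18.3 in C57 room air and 13.6, 13, 17.3 and 13 in oxygen, and at 25.7, 23.6 and 18.1 and 31.8, 31.8, 30.2 and 27.4 in BALBc. It fell in C57 by 0.51 ± 0.11 (adjusted p = 0.0461), its BALBc response was 0.43 ± 0.12 (adjusted p = 0.12), and the interaction was 0.93 ± 0.16 (adjusted p = 0.0195).

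Ppbp, a chemokine stored in platelets, was at FPKM 4.25, 9.99, 9.61 and 9.13 in C57 room air and 6.44, 4.09, 5.14 and 5.55 in oxygen. The BALBc libraries were at 8.49, 6.89 and 7.65 in room air and 16.5, 23.3, 17.1 and 22.7 in oxygen. The C57 groups overlapped through room-air replicate 1, and Ppbp rose in BALBc by 1.26 ± 0.22 (adjusted p = 0.014), against -0.51 ± 0.21 in C57 (adjusted p = 0.272). Its interaction was 1.76 ± 0.30 (adjusted p = 0.0187) and missed the threshold without BALBc normoxia replicate 2 (adjusted p = 0.0516).

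Of 9 tested megakaryocyte and platelet markers 2 were called, Ppbp and Itgb3, and all 9 had an interaction above 0, with a median of 0.86. The summed FPKM of the list was 19 to 34.5 in C57 room air, 19.8 to 25.6 in C57 oxygen, 19.7 to 27.6 in BALBc room air and 51.5 to 68.9 in BALBc oxygen. Only the last of these ranges stood apart from the other 3 groups. Of 22 tested erythroid markers 1 was called, Rhd, and 19 had an interaction above 0, with a median of 0.61; their sums were 1626 to 3431, 1298 to 2953, 1612 to 1929 and 1508 to 2016 in the same order of groups and overlapped. Slc4a1, the anion exchanger of the red cell membrane, had 1.65 ± 0.37 (adjusted p = 0.052). Of 12 tested neutrophil markers 0 were called by limma, with 2 at an unadjusted p under 0.05 (12.7% of all genes tested were). Of the 12, 11 lay above 0, and the median was 0.61. The part of the number of such cells in these results was not tested.

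Cd209f, a lectin of the DC-SIGN family, was at FPKM 12.8, 21.8, 13.3 and 15.5 in C57 room air and 8.53, 7.49, 4.82 and 7.48 in oxygen, and at 9.38, 5.65 and 7.26 and 11.6, 12.6, 7.93 and 13.8 in BALBc. It fell in C57 by 1.05 ± 0.20 (adjusted p = 0.0300) without overlap, while the BALBc groups overlapped with a response of 0.57 ± 0.22 (adjusted p = 0.285). The interaction of 1.62 ± 0.30 (adjusted p = 0.0248) missed the threshold without BALBc normoxia replicates 2 and 3 and BALBc hyperoxia replicates 2 and 4, with an adjusted p of 0.0555 to 0.0711. Ccl6, a macrophage chemokine, fell in C57 by 0.73 ± 0.15 (adjusted p = 0.0434), with 0.46 ± 0.17 in BALBc (adjusted p = 0.247) and an interaction of 1.19 ± 0.23.

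The remaining opposite genes with the higher response in BALBc were Gstt2, Rpsa-ps10, Lyl1, Pctp, Neurl3, Slc25a33 and Per3. Gstt2, a glutathione transferase, fell in C57 by 0.58 ± 0.10 (adjusted p = 0.0152), with 0.35 ± 0.11 in BALBc (adjusted p = 0.163). Its interaction was called in 15 of 15 refits but not with the library class in the model (limma adjusted p = 0.0545). Per3, a gene of the circadian clock, was the 1 call among 17 tested clock genes, with an interaction of 0.64 ± 0.14 (adjusted p = 0.0495) that was called in 1 of 15 refits, the one without C57 normoxia replicate 4. With Nrn1, whose smaller response was 0.26, Per3 lay just inside the limit of 0.25 for an opposite response, and Gm4788 and Blvrb lay just outside it.

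Genes with a starting level near 0 were set apart by that level, and some of them also had opposite responses. An unadjusted p under 0.05 (limma) in both strains with opposite signs was found for 15 of the 31, and for 1.16% of all genes tested. Libraries did not overlap in either strain, in opposite directions, for 10 of the 31, against 0.491% of all genes tested. These genes too were called on the difference of the same responses, so the shares test nothing further. Of these 31, 14 were near 0 in C57 only, 10 in BALBc only and 7 in both. In 24 genes 1 strain alone was near 0, and the other strain's response was below 0 in 21 of those. Within the 21, the low strain's response was under 0.25 in size for 6. For 15 it was a rise of at least 0.25, opposite in sign to the other strain's response. Those 6 were Thrsp, Cyp2c39, Rab27a, Gm17622, Soat1 and Spic. Of these, Thrsp, Cyp2c39 and Gm17622 had a room-air mean under 0.5 in C57, where a fall of the size seen in BALBc could not have been measured, and for them the interaction cannot be told apart from the missing starting level.

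Thrsp, a nuclear protein that promotes fatty acid synthesis, is the plainest example. In C57 it was at FPKM 0.397, 0, 0.708 and 0.12 in room air and 0.0861, 0.453, 0.184 and 0.17 in oxygen, from 0 to 25 fragments per library. The values in BALBc were 8.43, 8.39 and 10.4 in room air and 2.05, 2.08, 1.85 and 2.1 in oxygen. BALBc fell by 1.73 ± 0.17 without overlap (adjusted p = 2.39e-04), C57 had -0.07 ± 0.15 (adjusted p = 0.875), and the interaction was -1.66 ± 0.23 (adjusted p = 0.0054). With a pseudocount of 0.1 in place of 1 the interaction was not called (limma adjusted p = 0.244). Thrsp was the 1 call among 19 tested genes of lipogenesis, whose median interaction was -0.07.

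Cyp2c39, a P450 absent or nearly so from the C57 libraries, was at FPKM 0 to 0.308 in C57 room air and 0 to 0.400 in C57 oxygen. In BALBc it was at 10.1, 10.5 and 18.5 in room air and 3.53, 5.25, 3.32 and 6.43 in oxygen, and fell by 1.3 ± 0.22 (adjusted p = 0.0123). The interaction of -1.45 ± 0.30 (adjusted p = 0.0423) was called in 5 of 15 refits, those without C57 normoxia replicates 1 or 4, C57 hyperoxia replicate 4, BALBc normoxia replicate 1 or BALBc hyperoxia replicate 4. Gm17622 was listed at 0 in every library except the 3 of BALBc room air, at 2.32, 1.44 and 5.75, which stand for 1 to 4 fragments. It was tested only because of these 3 libraries, and no fold is given for it.

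Prodh and Sdr9c7 started low in C57 too. Prodh was at FPKM 0.367, 0.428, 0.962 and 0.512 in C57 room air and 0.943, 1.69, 0.593 and 1.27 in oxygen, and at 11.8, 9.71 and 15.1 and 4.25, 5.92, 5.1 and 6.12 in BALBc. Groups overlapped in C57 (0.43 ± 0.17, adjusted p = 0.272) and not in BALBc, where it fell by 1.05 ± 0.19 (adjusted p = 0.0148). The interaction of -1.47 ± 0.26 (adjusted p = 0.0189) missed the threshold without BALBc normoxia replicate 3 (adjusted p = 0.0557). Sdr9c7, a short-chain dehydrogenase, had means of 0.609 ± 0.393 and 1.07 ± 0.146 in C57 (SD, n = 4 each), 4.03 ± 0.261 in BALBc room air (SD, n = 3) and 1.87 ± 0.153 in BALBc oxygen (SD, n = 4), with an interaction of -1.2 ± 0.20 (adjusted p = 0.0144).

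Mug2, the paralogue of Mug1, was low in both strains. In C57 it was at FPKM 0.651, 0.554, 1.11 and 1.7 in room air and 3.87, 4.12, 2.34 and 4.89 in oxygen. BALBc libraries had 1.46, 1.5 and 1.51 in room air and 0.389, 0.368, 0.738 and 0.46 in oxygen. The groups overlapped in neither strain, and the low start did not keep BALBc from a lower level in all 4 oxygen libraries. Mug2 rose in C57 by 1.27 ± 0.19 (adjusted p = 0.00522), its BALBc response was -0.75 ± 0.20 (adjusted p = 0.101), and the interaction of -2.02 ± 0.27 (adjusted p = 0.0054) was called in 15 of 15 refits.

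Hamp, hepcidin, the liver hormone that blocks iron release into plasma (ENSMUSG00000050440, chr7:30942368-30944032, minus strand), had the largest interaction of all 107 and was the 1 called gene whose rise passed the test in both strains. C57 libraries were at FPKM 8.49, 31.8, 23.4 and 23.3 in room air and 111, 59.7, 113 and 212 in oxygen. In BALBc the values were 2.68, 1.11 and 1.42 in room air, from 7 to 21 fragments, and 67.8, 318, 302 and 339 in oxygen. Oxygen libraries lay above every room-air library in both strains, and the oxygen ranges of the strains overlapped. Hamp rose by 2.45 ± 0.51 in C57 (adjusted p = 0.0393) and by 6.36 ± 0.55 in BALBc (adjusted p = 1.43e-04), an interaction of 3.91 ± 0.75 (adjusted p = 0.0277). In unlogged FPKM the same comparison was not called (adjusted p = 0.406), and on the log scale the call held in 7 of 15 refits. It was lost without C57 normoxia replicate 2, C57 hyperoxia replicates 1 and 2, BALBc normoxia replicates 2 and 3 and BALBc hyperoxia replicates 2, 3 and 4 (adjusted p = 0.0504 to 0.0827), and also with the library class in the model (3.54, adjusted p = 0.104). With a room-air mean of 1.73 in BALBc it lay just under the boundary of 2, as did Lgals3 at 1.61, whereas Itgb3 at 2.11 and Lyl1 at 2.26 lay just above it.

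Hamp is switched on by BMP ligands through SMAD proteins, which bind the letters GGCGCC in its promoter, and the 250 bases before its RefSeq start are shown with that match in capitals (GRCm38.p6, chr7:30944030-30944279, minus strand). The match begins at base -109. The letters read the same on both strands and were found in 9.536% of all 27025 promoters and in 16.6% of those of the genes tested, so they are common.
Hamp: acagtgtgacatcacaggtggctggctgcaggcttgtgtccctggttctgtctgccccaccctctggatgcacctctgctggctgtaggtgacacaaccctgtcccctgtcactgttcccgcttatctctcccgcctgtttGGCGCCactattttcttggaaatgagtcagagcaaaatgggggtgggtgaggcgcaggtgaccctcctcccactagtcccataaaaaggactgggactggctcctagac
Of the 20 tested genes of BMP and activin signalling 0 were called by limma, with 4 at an unadjusted p under 0.05 (12.7% of all genes tested were). Id1, a direct SMAD target, rose in BALBc by 1.29 (adjusted p = 0.0123) with 0.13 in C57 (adjusted p = 0.81), and its interaction was 1.16 ± 0.30 (adjusted p = 0.0942). Inhbb, the activin B chain, rose in BALBc by 1.32 (adjusted p = 0.0169) with 0.01 in C57 (adjusted p = 0.995) and an interaction of 1.32 ± 0.33 (adjusted p = 0.083). Hamp2, a near copy of Hamp, had 1.55 ± 0.61 (adjusted p = 0.295). Among 26 tested genes of hepcidin and iron handling 3 were called, Hamp, Hmox1 and Blvrb, all with the higher response in BALBc, and the median interaction was 0.11.

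Tlr2, a receptor for bacterial lipoproteins, was at FPKM 8.99, 4.0003, 5.1 and 5.28 in C57 room air and 2.001, 2.24, 1.49 and 1.58 in oxygen. BALBc libraries held 1.34, 0.603 and 0.837 in room air and 1.56, 1.8, 1.78 and 1.4 in oxygen. Groups overlapped in neither strain, and the strains' oxygen ranges overlapped; Tlr2 fell in C57 by 1.23 ± 0.18 (adjusted p = 0.00522), with 0.47 ± 0.19 in BALBc (adjusted p = 0.321). Its interaction of 1.7 ± 0.26 (adjusted p = 0.0144) was called in 15 of 15 refits.

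Ncf4, a subunit of the phagocyte oxidase, was at FPKM 6.06, 3.73, 4.91 and 3.99 in C57 room air and 2.08, 1.51, 1.89 and 2.3 in oxygen, and at 1.4, 1.54 and 0.833 and 1.82, 2.22, 1.93 and 2.05 in BALBc, again without overlap in either strain. It fell in C57 by 0.93 ± 0.14 (adjusted p = 0.00522), with 0.43 ± 0.15 in BALBc (adjusted p = 0.224), and the interaction was 1.36 ± 0.20 (adjusted p = 0.0118). Lgals3, a galectin of macrophages, had -0.57 ± 0.16 in C57 (adjusted p = 0.115) and 0.55 ± 0.17 in BALBc (adjusted p = 0.17). Fgr, a kinase of myeloid cells, and Spic, a transcription factor of macrophages that recycle red cells, fell in C57 by 0.81 each (adjusted p = 0.0174 and 0.0108), with 0.26 ± 0.15 and 0.14 ± 0.14 in BALBc.

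Rhd, a red cell membrane protein, was at FPKM 0.739 to 2.44 in C57 room air, 0.166 to 0.67 in C57 oxygen, 2.24 to 3.12 in BALBc room air and 3.28 to 5.01 in BALBc oxygen. The groups did not overlap in either strain, yet neither response passed the test (adjusted p = 0.0624 and 0.311), and the interaction of 1.31 ± 0.28 (adjusted p = 0.0427) was called in 3 of 15 refits, those without C57 normoxia replicate 3, C57 hyperoxia replicate 1 or BALBc hyperoxia replicate 1. Ankrd55 was nearly silent in 11 libraries, at 0 to 0.300 in C57 room air, 0.0525 to 0.0932 in C57 oxygen and 0.193 to 0.415 in BALBc room air, and was at 1.67, 2.47, 2.06 and 2.61 in BALBc oxygen. It rose there by 1.28 ± 0.16 (adjusted p = 0.00248), and the interaction was 1.28 ± 0.22 (adjusted p = 0.0171). Ankrd55 reached the FPKM of 1 needed for testing only in BALBc oxygen, so these p-values describe it and give no further support. With a pseudocount of 0.1 its interaction was not called (limma adjusted p = 0.227).

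The rest of the near-0 genes were Dhx58, Slco2b1, Rgl3, Ildr2, Ahdc1, Gm14584, Gm9108, Gm27369 and Gm44478 with the lower response in BALBc and Il10rb, Adamts14, Cxcr4, Cd209g, Ppm1n and AA465934 with the higher. Gm27369 and Gm44478 were listed at 0 in all libraries of at least 2 groups and at 0 to 6 and 0 to 13 fragments elsewhere. They were tested only because of their values in 1 group, BALBc room air for Gm27369 and C57 oxygen for Gm44478. Ppm1n was at FPKM 1.36, 1.33, 1.33 and 1.26 in C57 room air and at 0.0281 to 0.0832 in C57 oxygen, a fall by 1.13 ± 0.14 (adjusted p = 0.00225), and BALBc libraries were at 0 to 0.116 in room air and 0 to 0.296 in oxygen. Only C57 room air brought Ppm1n to the FPKM of 1 needed for testing, so that p-value gives no further support. Its interaction was not called with a pseudocount of 0.1 (limma adjusted p = 0.116).

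**Figure D3:**
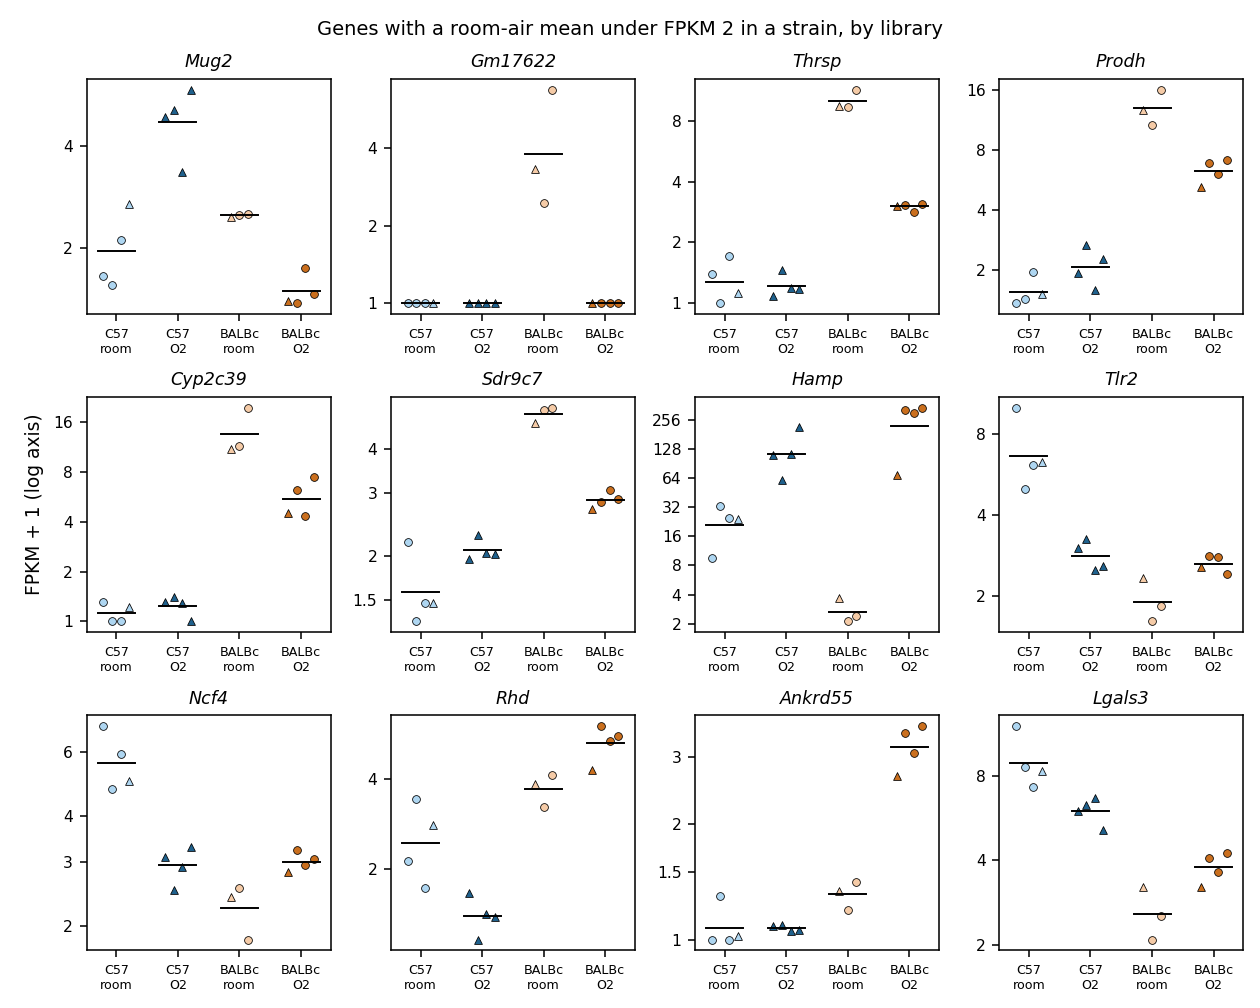
FPKM + 1 on a log axis, by library, for the 6 genes with the largest interaction in each direction among those whose room-air mean FPKM was under 2 in a strain. Circles, triangles and bars are as in the plot of opposite genes. Thrsp, Cyp2c39 and Gm17622 lie near the floor of 1 in both C57 groups, while Hamp rises in both strains from different starting levels.

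The calls were repeated on other scales. With a pseudocount of 0.1 in place of 1, all 44 opposite genes and 31 of the 32 mostly in one strain were still called, against 21 of the 31 near 0, a set whose low values that change of pseudocount acts on most. Near 0, the calls lost were Thrsp (limma adjusted p = 0.244), Cyp2c39 (0.270), Ankrd55 (0.227), Gm17622 (0.146), Ppm1n (0.116), Gm27369 (0.0791), Cd209g (0.0668), Gm44478 (0.0662), Spic (0.0642) and Rhd (0.0508). Mostly in one strain, Fam213b was lost (0.0680). In unlogged FPKM all 107 kept their sign, and 34 of the opposite, 22 of those mostly in one strain and 18 of those near 0 were called. Genes described by name that were not called in unlogged FPKM include Afp (adjusted p = 0.0906), Igfbp2 (0.159), Cps1 (0.0555), Acot3 (0.119), Per3 (0.0894), Tlr2 (0.0794), Cyp2c39 (0.0894), Rhd (0.0557), Lgals3 (0.126), Igfbp1 (0.432), Serpina1d (0.149), Peg3 (0.285), Sult2a2 (0.307), mt-Cytb (0.568) and mt-Nd5 (0.0969).

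Among the 32 genes whose response lay mostly in one strain, 20 were called for the response in BALBc only and 7 in C57 only. The name stands for a smaller response under 0.25 in size, which can be close to the larger one, as in Mettl7a1 (0.22 in C57, -0.23 in BALBc). Opposite signs with an unadjusted p under 0.05 (limma) in both strains were found for 7 of the 32, against 1.16% of all genes tested. Libraries did not overlap in either strain, in opposite directions, for 6, against 0.491%. These shares too test nothing further. Marco, a scavenger receptor of macrophages (ENSMUSG00000026390, chr1:120474538-120505024, minus strand), was at FPKM 316, 182, 224 and 185 in C57 room air and 39.6, 79.9, 48.8 and 30.9 in oxygen. The values in BALBc were 7.6, 7.62 and 6.18 in room air and 6.11, 7.93, 6.3 and 10.1 in oxygen. Marco fell in C57 by 2.21 ± 0.25 without overlap (adjusted p = 0.00225) and stayed above every BALBc library, whose groups overlapped (0.06 ± 0.27, adjusted p = 0.961). The interaction was 2.28 ± 0.36 (adjusted p = 0.0144), called in 15 of 15 refits, and 2.12 with the library class in the model (adjusted p = 0.0545).

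Lyz2, lysozyme of macrophages and neutrophils, was at FPKM 166, 119, 135 and 134 in C57 room air and 68.2, 63.5, 52.6 and 45.6 in oxygen, and at 27.5, 24.2 and 39 and 27.7, 28, 26.9 and 29.6 in BALBc. It fell in C57 by 1.26 ± 0.15 (adjusted p = 0.00225), with -0.08 ± 0.16 in BALBc (adjusted p = 0.911). The interaction of 1.18 ± 0.22 (adjusted p = 0.0234) missed the threshold without BALBc normoxia replicate 2 (adjusted p = 0.0708) and without BALBc hyperoxia replicates 2 and 4 (adjusted p = 0.0553 and 0.0538). Of 20 tested Kupffer cell and macrophage markers 3 were called, Marco, Lyz2 and Spic, all with the higher response in BALBc, 18 lay above 0, and the median was 0.26. Clec4f, a lectin that marks Kupffer cells, rose in C57 by 0.44 (adjusted p = 0.0493), against -0.04 in BALBc (adjusted p = 0.926) and an interaction of -0.48 ± 0.14 (adjusted p = 0.147). The summed FPKM of the list was 892 to 1350.2 in C57 room air, 624 to 757 in C57 oxygen, 353 to 394 in BALBc room air and 331 to 419 in BALBc oxygen; Marco is a large part of the C57 sums, and the part of cell number was not tested.

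Among genes with a response mostly in BALBc was Igfbp1, a binding protein of insulin-like growth factors that rises in fasting. It was at FPKM 921, 987, 638 and 735 in C57 room air and 785, 593, 878 and 689 in oxygen. The BALBc libraries were at 43.6, 105 and 69.4 in room air and 184, 185, 231 and 191 in oxygen. The groups overlapped in C57 (-0.15 ± 0.21, adjusted p = 0.796) and not in BALBc, where it rose by 1.52 ± 0.23 (adjusted p = 0.00623) and stayed below every C57 library. The interaction was 1.67 ± 0.32 (adjusted p = 0.0267) and held in 8 of 15 refits; it was lost without C57 normoxia replicate 2, C57 hyperoxia replicates 2 and 4, BALBc normoxia replicate 3 and BALBc hyperoxia replicates 2, 3 and 4, at an adjusted p of 0.0512 to 0.0695. Igfbp1 and Igfbp2 were the 2 calls among 17 tested genes of the growth hormone and IGF axis, whose median interaction was 0.01; Igf1 itself had -0.41 ± 0.16 (adjusted p = 0.295).

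Serpina1d, an alpha-1-antitrypsin gene, was at FPKM 1009 to 1241 and 1042 to 1099 in C57 room air and oxygen and at 149.6, 155 and 111 and 219, 275, 308 and 249 in BALBc. It rose in BALBc by 0.92 ± 0.12 without overlap (adjusted p = 0.00259), with -0.10 ± 0.11 in C57 (adjusted p = 0.747). The interaction was 1.02 ± 0.17 (adjusted p = 0.0144), called in 15 of 15 refits, and 1.01 with the library class in the model (limma adjusted p = 0.0545). Peg3, an imprinted zinc finger gene, and Itgb3, the beta chain of the platelet fibrinogen receptor, also rose in BALBc, by 0.86 ± 0.16 (adjusted p = 0.0163) and 0.80 ± 0.12 (adjusted p = 0.00507). The C57 responses were -0.15 ± 0.15 and -0.06 ± 0.11, and the interactions 1.01 ± 0.21 and 0.86 ± 0.16. Txnip, a thioredoxin-binding protein that responds to glucose, rose in BALBc by 0.58 ± 0.11 (adjusted p = 0.0229), with -0.13 ± 0.10 in C57.

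Saa4, a serum amyloid A protein made all the time rather than in the acute phase, was at FPKM 49.9, 45.3, 58.9 and 47.3 in C57 room air and 47.7, 56.5, 48.2 and 51.6 in oxygen. BALBc libraries had 87.8, 107 and 101 in room air and 52.1, 51.4, 55.2 and 55.9 in oxygen. The C57 groups overlapped at the level that BALBc reached in oxygen; Saa4 fell in BALBc by 0.86 ± 0.10 (adjusted p = 8.12e-04), with 0.02 ± 0.09 in C57 (adjusted p = 0.943). The interaction of -0.88 ± 0.13 (adjusted p = 0.0118) was called in 15 of 15 refits. Saa4 was the 1 call among 19 tested acute phase proteins, whose median interaction was -0.06.

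Fam213b, a thioredoxin-fold reductase also known as Prxl2b, was at FPKM 3.67 to 7.65 and 4.18 to 6.79 in C57 room air and oxygen and at 36.5, 50.7 and 46 and 19.2, 18.3, 22.8 and 18.5 in BALBc, a fall by 1.13 ± 0.19 (adjusted p = 0.0107). Its interaction of -1.18 ± 0.25 (adjusted p = 0.0428) was called in 3 of 15 refits, those without C57 normoxia replicate 4, C57 hyperoxia replicate 3 or BALBc normoxia replicate 1. Sult2a2, the neighbour of Sult2a1, and Acy3, an aminoacylase, had interactions of -0.69 ± 0.15 and -0.69 ± 0.14, called in 3 and 5 of 15 refits. Gm4788, the other way round, rose in C57 by 0.54 ± 0.11 (adjusted p = 0.0396), with -0.25 ± 0.12 in BALBc (adjusted p = 0.439).

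Transcripts of the mitochondrial genome had the lowest median interaction of the lists. mt-Cytb, the cytochrome b of respiratory complex III, was at FPKM 6127, 6162, 7002 and 9142 in C57 room air and 7328, 7012, 6147 and 7065 in oxygen. BALBc libraries held 3798, 3307 and 3766 in room air and 2073, 1913, 1912 and 1991 in oxygen. The C57 groups overlapped, and mt-Cytb fell in BALBc by 0.88 ± 0.12 (adjusted p = 0.00251), for an interaction of -0.85 ± 0.16 (adjusted p = 0.0248) that held in 9 of 15 refits. It was lost without C57 hyperoxia replicates 2 and 4, BALBc normoxia replicate 3 and BALBc hyperoxia replicates 2, 3 and 4, at an adjusted p of 0.0533 to 0.0735. mt-Nd5, a subunit of complex I, had an interaction of -0.68 ± 0.14, called in 3 of 15 refits. mt-Te, a transfer RNA gene of 69 bases between these genes, 0.006 kb from mt-Cytb, had -1.18 ± 0.19. Whether its fragments came from the adjoining transcripts was not tested. With the library class in the model, limma called none of mt-Cytb, mt-Nd5 and mt-Te (adjusted p = 0.0772, 0.109 and 0.0608).

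Of the 13 tested messenger RNAs of the mitochondrial genome 2 were called, mt-Cytb and mt-Nd5, and 12 lay below 0, with a median of -0.68. Their summed FPKM was 31517 to 47695 in C57 room air, 33896 to 39307 in C57 oxygen, 27230.1 to 32096 in BALBc room air and 22469 to 27758 in BALBc oxygen. The BALBc ranges overlapped at the edge and the C57 oxygen range lay within that of C57 room air, and the share of mitochondrial RNA can also move with how tissue and RNA were handled, which was not tested.

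The other genes with a response mostly in one strain were Galk1, Rpsa, Rps12, Grap, Abhd2, Osgin1, Adgrg1, Blvrb and Txnip with the higher response in BALBc and Ces1c, Fmo1, Mettl7a1, Hsp90aa1, Cd164, Insig2, Zfp131, Ahcy, Pygl, mt-Nd5 and mt-Te with the lower. Galk1, galactokinase, which a pup on milk needs to use galactose, was at FPKM 219, 257, 237 and 225 in C57 room air and 174, 166, 183 and 169 in oxygen, and at 109, 122 and 122 and 128, 157, 139 and 132 in BALBc. It fell in C57 by 0.44 ± 0.07 (adjusted p = 0.0135), with 0.24 ± 0.08 in BALBc (limma adjusted p = 0.207), and the groups overlapped in neither strain. Its interaction was 0.67 ± 0.11 (adjusted p = 0.0144), called in 15 of 15 refits, and 0.57 with the library class in the model (adjusted p = 0.0545). Fmo1, a flavin monooxygenase that oxidises drugs, had a response of 0.29 ± 0.07 in C57 (adjusted p = 0.0514) and -0.21 ± 0.07 in BALBc (adjusted p = 0.205), with an interaction of -0.50 ± 0.10 (adjusted p = 0.0277). Osgin1, induced by oxidative stress, rose in BALBc by 0.78 ± 0.11 (adjusted p = 0.0031) with 0.09 ± 0.10 in C57. Ahcy, which clears S-adenosylhomocysteine, fell in BALBc by 0.53 ± 0.08 (adjusted p = 0.00507) with -0.03 ± 0.07 in C57.

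**Figure D4:**
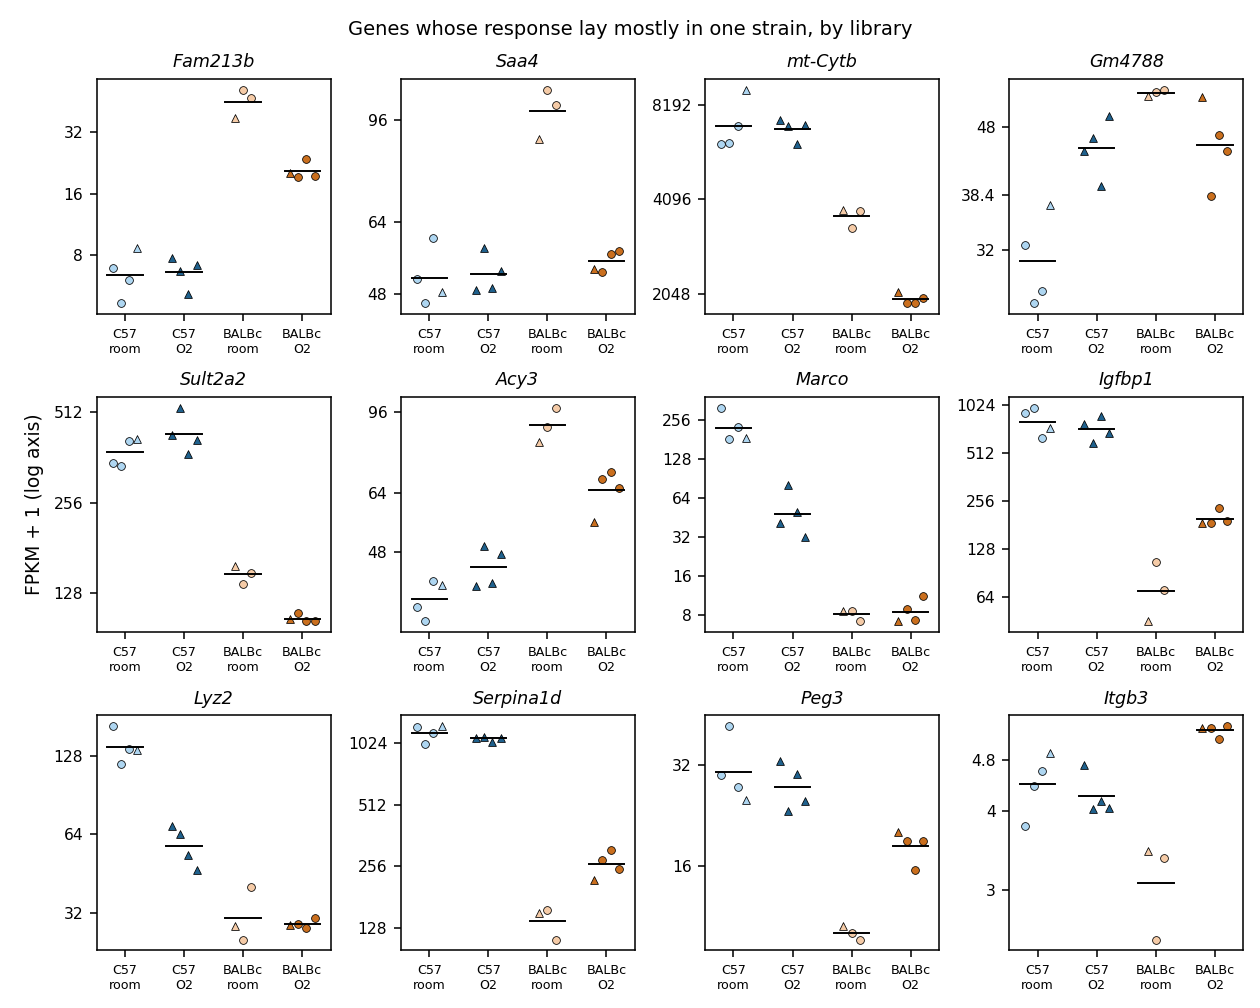
FPKM + 1 on a log axis, by library, for the 6 genes with the largest interaction in each direction among those that responded mostly in one strain. Circles, triangles and bars are as in the plot of opposite genes. Marco and Lyz2 drop in C57 alone, and Saa4, Fam213b and mt-Cytb drop in BALBc alone.

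Several further lists had few or no calls. Their counts at an unadjusted p under 0.05, here and for the markers of other cells, stand against 12.7% of all genes tested. For cholesterol synthesis limma called 0 of 24 tested genes, with 10 at an unadjusted p under 0.05; 20 lay above 0, and the median interaction was 0.25, with median responses of 0.16 in C57 and 0.38 in BALBc. For the cell cycle it called 0 of 36, with 6 at an unadjusted p under 0.05, and 33 lay below 0, with a median of -0.28 and median responses of 0.21 and -0.09. Among 28 interferon-stimulated genes 1 was called, Dhx58, a sensor of viral RNA, with the lower response in BALBc; 25 lay below 0, and the median was -0.24. Among 26 heat shock proteins and chaperones 1 was called, Hsp90aa1, with the lower response, 23 lay below 0, and the median was -0.22.

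Glycolysis and gluconeogenesis had a median interaction of 0.10 with 0 of 24 called by limma and 6 at an unadjusted p under 0.05, and its median response was -0.21 in C57 and -0.20 in BALBc. Bile acid synthesis and transport had 1 call of 15, Abcb11, and a median of -0.21. Markers of other cells gave 0 calls by limma: the median interaction was -0.01 for 14 sinusoidal endothelial genes, with 1 at an unadjusted p under 0.05, -0.17 for 15 stellate and fibroblast genes (2), -0.18 for 6 cholangiocyte genes (1) and 0.14 for 9 B and T cell genes (1). Of the hepatocyte markers 1 of 20 was called, Cps1, with a median of -0.11. Pancreatic acinar markers were at a summed FPKM of 36.8 to 127 and 39.3 to 141 in the C57 groups and 5.47 to 7.92 and 3.69 to 5.44 in the BALBc groups, and limma called 0 of the 4 tested, with 1 at an unadjusted p under 0.05. The 1 skeletal muscle and the 1 fat marker tested were not called either, with 0 and 0 at an unadjusted p under 0.05.

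**Figure D5:**
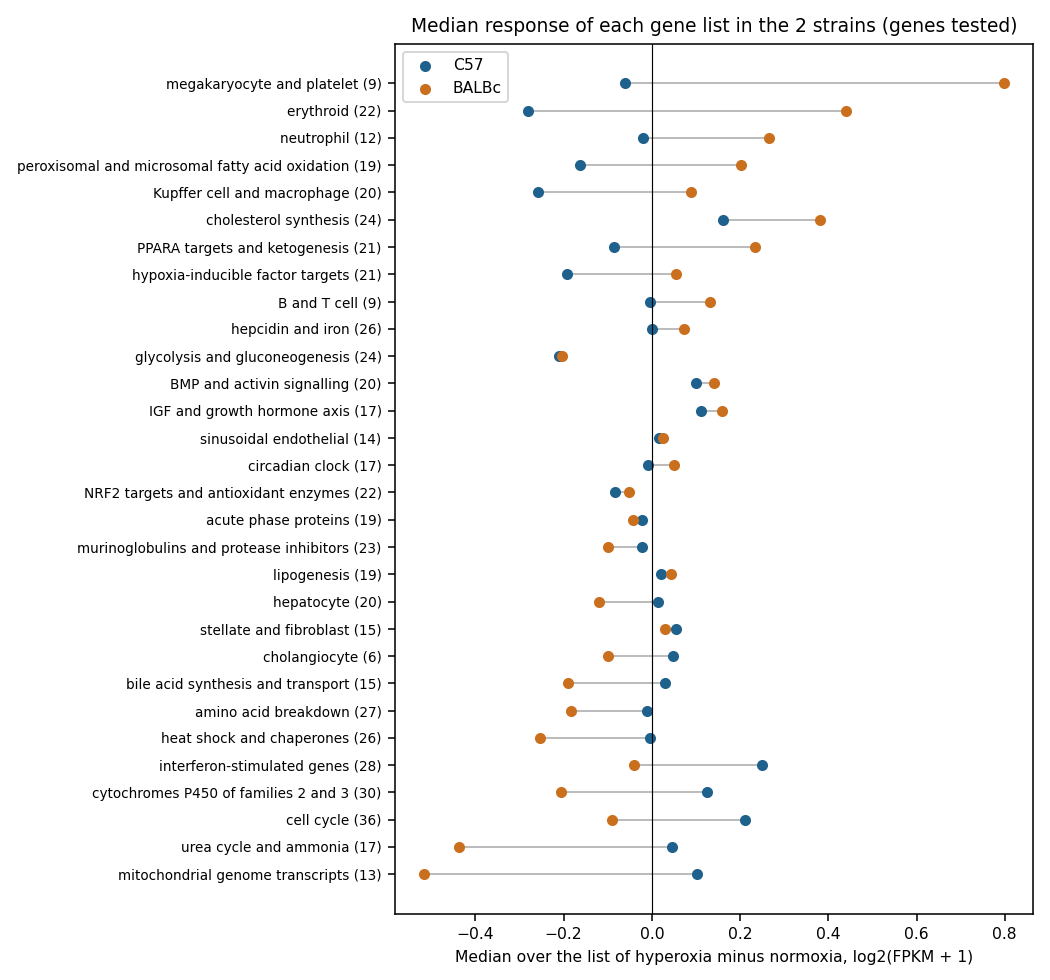
Median response, as hyperoxia minus normoxia on log2(FPKM + 1), of each gene list with at least 5 genes tested, in C57 and in BALBc; the number tested is in brackets and the grey line spans the strains. Platelet and erythroid markers lie at the top, with the higher median in BALBc, and urea cycle genes and mitochondrial transcripts at the bottom, with the lower.

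Some called genes had a called neighbour. There were 13 pairs of called genes next to each other in the list by position and within 500 kb, and 11 pairs shared the direction of the interaction. They include Mug1 and Mug2 (118 kb apart), Cyp4a14 and Cyp4a10 (22.1 kb), Acot2 and Acot3 (58.3 kb), Sult2a2 and Sult2a1 (16.6 kb), Nat8f2 and Nat8f1 (41.0 kb), Cd209f and Cd209g (28.3 kb) and Afp and Ppbp (260 kb). Only Fgr and Ahdc1, and Cyp2f2 and Blvrb, differed in direction.

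Paralogues also share sequence, so that fragments of 1 gene can be counted for another. Of the 107 genes, 31 had over 10% of their 50-base windows in another gene's transcripts as well, 13 of them opposite, 8 near 0 and 10 mostly in one strain, and 51 had none. The share was 26.5% for Mug1, 50.5% for Mug2, 29.8% for Cyp4a10, 27.7% for Acot2, 33.2% for Sult2a1, 50.9% for Serpina1d, 16.6% for Hamp (with Hamp2) and 14% for Serpina3k. It was 82.3% for Rpsa-ps10 (74.6% with Rpsa), 68.7% for Ahcy, 68.5% for Gm14584, 62.1% for Sult2a2 and 47.5% for Hsp90aa1. The values of these genes are uncertain for that reason, and how far fragments were counted for the wrong gene was not tested. For Cyp2c70, Hmox1, Afp, Igfbp2, Ppbp, Marco, Tlr2 and Ncf4 no window was shared. The strand setting of the counting is not stated, so a gene and an overlapping antisense gene cannot be told apart.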

How the data were processed

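RNA-seq of mouse liver was measured in 15 libraries in 4 groups of 3 or 4. The authors deposited a table of FPKM per gene; reads had been aligned with HISAT2 2.0.5 to GRCm38 (also given as mm10) and counted with featureCounts 1.5.0-p3, per the submitters' processing notes. The trimming, the strand setting and the annotation version are not given in the sources used here. Of 54532 Ensembl IDs, 54495 matched a GENCODE M21 gene, and 37 did not and kept their ID.

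FPKM are not counts, so no count test was run. Values were taken as log2(FPKM + 1), which understates changes of weakly expressed genes, for the genes that reached an FPKM of 1 in 3 or more libraries. limma 3.58.1 in R 4.3.3 fitted 1 mean per group with a variance trend, and the interaction was adjusted by Benjamini-Hochberg over 13026 genes. Fragments per library were read from the steps between low values, of which 98.1 to 98.7% per library lay within 0.05 of a whole fragment. The code was tested on simulated data.

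The members and the lists were chosen with earlier results of these data known. Genes were named by a rule: in each form and direction, up to 6 called protein-coding genes with the largest interaction and a highest group mean of 2 FPKM or more, and up to 4 members of a list with the smallest p. Other called genes are named to account for the members; 3 called genes are counted but not reported here by name. Alternatives were another pseudocount, other filters, 2 scalings, no trend, array weights, a replicate block, Xist as a covariate, the library class, other class limits, unlogged FPKM and each library left out. Promoters are from RefSeq tables of GRCm38.p6, and shared 50-base windows were counted in GENCODE M21 transcripts.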

Additional observations from a re-analysis of the deposited data

Results flagged for a closer look

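Within groups of 4 libraries, 10 values of called genes chosen by the naming rule (the largest interactions of each form and the list members) stood apart from the others of their group, the gap to the nearest library being most of the group's range. Over all called genes 24 of 321 such checks did, where chance gives about 1 in 20. In BALBc hyperoxia replicate 1, Hamp was at FPKM 67.8 against 302 to 339 in the other libraries of its group, Afp at 58.0 against 37.5 to 40.1, and Blvrb at 34.8 against 41.8 to 43.3. In C57 normoxia replicate 2, Cps1 was at 308 against 442 to 474, Hsp90aa1 at 28.0 against 31.3 to 31.5, and Ankrd55 at 0.300 against 0 to 0.0205. Hmox1 was at 27.9 in BALBc hyperoxia replicate 4 against 22.3 to 23.1. Igfbp1 was at 231 in BALBc hyperoxia replicate 3 against 184 to 191. Ppbp was at 4.25 in C57 normoxia replicate 1 against 9.13 to 9.99. Ak4 was at 17.3 in C57 hyperoxia replicate 3 against 13.0 to 13.6.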

How the results depend on the processing

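The count of 107 was 105 with a pseudocount of 0.1, 117 with a filter at FPKM 5, 110 with median scaling, 128 with quantile normalization, 80 without the variance trend and 81 with Xist as a covariate. It was 29 without a filter, 48 with array weights, 28 with the library class as a term and 0 within the libraries with many genes at 1 fragment; the causes were not tested, though the last fit has 7 libraries. With the class term 16 of the 28 were higher in BALBc and 12 lower, against 49 and 58. Leaving out 1 library gave 40 to 162. With the replicate number as a block 67 genes were called, 59 of them among the 107; of 21 pairs of libraries with the same number 1 had a correlation of deviations over 0.1 (range -0.0493 to 0.214), and for 4 of 15 libraries the best correlation was with one of the same number, which does not pair them. The 44 opposite genes became 71 with no smallest response and 15 with one of 0.5, and 21 to 62 with 1 library left out. Those near 0 became 19 with the boundary at 1, 9 with a filter at 5, and 12 to 41 with 1 library left out. Those mostly in one strain became 0 with no smallest response, 61 with one of 0.5, 53 with the filter at 5, and 6 to 59 with 1 library left out. Responses in the same direction became 1 with the boundary at 1, 5 with no smallest response, and 0 to 1 with 1 library left out. For the genes named by rule, 0 of the fits reversed the sign of a called interaction.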
